A study of Homo sapiens with 6 samples.

Results

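The BCL2 family genes described here are the anti-apoptotic BCL2, BCL2L1 and MCL1, the effectors BAX and BAK1, and the BH3-only genes BBC3, PMAIP1, BCL2L11, BID and BIK. They were listed by name and role, not by a rule on measured values, but with earlier results of these data known, and all 10 were found among the 58174 genes of the deposited table. The libraries are poly(A) mRNA-seq of KNS42, an established cell line from a pediatric glioblastoma. One group received a control siRNA (siC, n = 3) and the other a pool of siRNAs against MSI1 (siMSI1, n = 3). RNA of both groups was taken 72 h after transfection. Every library comes from this 1 line, the knockdown leaves a part of the MSI1 mRNA, and effects of the siRNA pool on other mRNAs were not tested.

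BCL2 family proteins decide whether the outer mitochondrial membrane is opened, the step that commits most cells to intrinsic apoptosis. BAX and BAK1 form the pores. BCL2, BCL2L1 (BCL-XL) and MCL1 hold them back, and BH3-only proteins either bind and block these guardians or activate the effectors directly. The outcome depends on the relative amounts of the proteins, and gliomas are known to rely on MCL1 and BCL-XL for survival. MCL1 and the BH3-only proteins are also under strong control after transcription, which mRNA levels do not show. The comparison asks how the mRNAs of this family stand upon MSI1 depletion, in a study that also followed cell vitality.

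The feature that ties the family together is the BH3 motif, the short helix through which its members bind each other. It is shown here for the 10 genes as the coding strand of the annotated GENCODE release 44 canonical transcript on GRCh38, the build of the deposited data. The sequences are those of the reference, not read from KNS42 cells. Each is 27 bases long, and the capitals mark the codon of the leucine that opens the motif and the codons of the glycine or alanine and the aspartate that follow after 3 residues.
MCL1 (chr1:150578868-150578894, minus strand): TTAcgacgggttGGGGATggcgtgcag
BCL2L1 (chr20:31721925-31721951, minus strand): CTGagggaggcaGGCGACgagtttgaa
BCL2 (chr18:63318352-63318378, minus strand): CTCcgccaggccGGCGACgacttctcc
BAX (chr19:48955787-48955813, plus strand): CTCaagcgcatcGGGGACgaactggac
BAK1 (chr6:33575390-33575416, minus strand): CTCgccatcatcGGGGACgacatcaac
BBC3 (chr19:47226582-47226608, minus strand): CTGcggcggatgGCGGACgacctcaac
PMAIP1 (chr18:59902673-59902699, plus strand): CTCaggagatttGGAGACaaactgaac
BCL2L11 (chr2:111150103-111150129, plus strand): TTGcggcgtattGGAGACgagtttaac
BID (chr22:17739418-17739444, minus strand): CTCgcccaggtcGGGGACagcatggac
BIK (chr22:43127716-43127742, plus strand): CTGgcctgcatcGGGGACgagatggac
The motif was found exactly 1 time in each of the 10 coding sequences, with glycine before the aspartate in 9 and alanine in BBC3. It is short, and 24.6% of all 19820 canonical coding sequences hold at least 1 match. The encoded proteins range from 54 residues for PMAIP1 to 350 for MCL1.

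The deposited values are FPKM, reads scaled to gene length and library size, which allow levels to be compared between genes. The libraries hold 13087025 to 18024080 reads on genes. MSI1 was at 63.7, 61.9 and 66.9 FPKM in the siC libraries, against 12.1, 12.3 and 11.2 FPKM in the siMSI1 libraries, which is 18.5% of the siC level. Of 6 glioma and neural progenitor markers, VIM, NES, SOX2, GFAP and FABP7 were detected and S100B had 0 reads in all libraries. Their summed level was 1404 to 1466 FPKM in siC and 1164 to 1264 FPKM in siMSI1. Within the list, FABP7 fell by 1.12 and GFAP rose by 1.46 on the log2 scale (adjusted p = 0.00027 and 0.00090, limma), and the part of this shift in the results below was not tested. The 4 blood cell markers summed to 0.0958 to 0.340 FPKM in siC and 0.162 to 0.692 FPKM in siMSI1, with at most 9 reads for any of them. The 3 endothelial markers summed to 0 to 0.0437 FPKM in siC and 0.172 to 0.301 FPKM in siMSI1, with at most 22 reads. This sum was near 0 but higher upon knockdown, and its part in the results was not tested. PECAM1 and CDH5 were higher, while KDR had at most 1 read, in siC. The 4 epithelial markers summed to 21.4 to 25.1 FPKM in siC and 18.5 to 22.0 FPKM in siMSI1, nearly all of it KRT18, with EPCAM and CDH1 near 0. KRT5 was low but higher upon knockdown, with 7, 2 and 9 reads in siC and 24, 11 and 17 reads in siMSI1. In such bulk libraries a change in cell makeup and a change in RNA per cell cannot be told apart.

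Upon MSI1 knockdown, MCL1 fell and BBC3, BCL2L11 and BID rose, while BCL2, BAK1 and PMAIP1 did not pass the test. BCL2L1 and BAX had fully separated groups but missed the threshold. The test was limma on log2(FPKM + 0.1) over all 15069 genes with a mean of at least 0.5 FPKM, with Benjamini-Hochberg adjustment and a threshold of 0.01. BIK had too few reads to enter it. Thus 4 of the 9 tested members were called, against 11% of all tested genes. In siMSI1, 1 member was lower and 3 were higher, where 5.83% and 5.15% of all genes were. The siC and siMSI1 values did not overlap for 7 of the 9, against 42.8% of all genes. The count of 4 was not stable when 1 library was left out. It was 2 (MCL1 and BBC3) when any of the siC libraries or siMSI1 replicate 2 was left out. Without siMSI1 replicate 1 it was 1 (MCL1), and without siMSI1 replicate 3 it was 5. In these fits the log2 fold change stayed at 0.43 to 0.48 for BCL2L11 and at 0.45 to 0.59 for BID. Calls over all genes fell as well, from 1655 to between 517 and 1603. The plot of levels by gene shows the 6 values of each member.

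**Figure D1:**
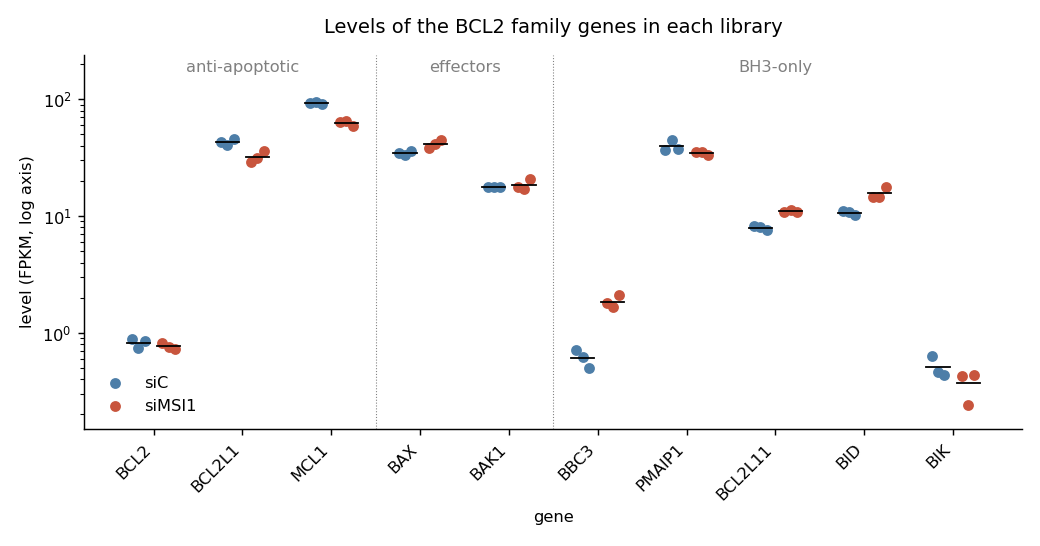
Level of each BCL2 family gene (FPKM, log axis) in the 3 siC and the 3 siMSI1 libraries. Points are libraries, black lines are group means and dotted lines part the roles. The siMSI1 points lie below siC for MCL1, BCL2L1 and PMAIP1 and above siC for BAX, BBC3, BCL2L11 and BID.

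MCL1 (ENSG00000143384), on chromosome 1 of GRCh38 from 150560895 to 150579738, encodes the short-lived guardian that sequesters BAK1 and BIM. It was the most abundant of the 10 genes. Its level was 93.0, 94.0 and 91.2 FPKM in the siC libraries, against 64.4, 64.6 and 59.0 FPKM in the siMSI1 libraries. All knockdown libraries lie well below all control libraries, and the siMSI1 mean was 67.6% of the siC mean. The log2 fold change was −0.57 (SE 0.063, 95% interval −0.71 to −0.42, adjusted p = 0.0010, limma). With 3702 to 7436 reads per library, counting error is small. MCL1 was the only member whose call held in all 16 alternative fits, with an adjusted p of at most 0.0094.

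BCL2L1 (ENSG00000171552), on chromosome 20 from 31664452 to 31723989, encodes BCL-XL, the main guardian against BAX. It was at 42.8, 40.2 and 45.5 FPKM in the siC libraries, against 28.8, 31.1 and 35.8 FPKM in the siMSI1 libraries. The groups do not overlap, with siMSI1 replicate 3 nearest to the controls. The log2 fold change of −0.43 (SE 0.093, 95% interval −0.64 to −0.21) had an adjusted p of 0.014 (limma) and so was not called. The adjusted p ranged from 4.8e-06 to 0.054 in the alternative fits, with 0.0040 without siMSI1 replicate 3. BCL2L1 also encodes BCL-XS, a shorter pro-apoptotic splice form, and gene-level values do not part them.

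BCL2 (ENSG00000171791), the founding member of the family, lies on chromosome 18 from 63123346 to 63320128. It was at 0.879, 0.738 and 0.845 FPKM in the siC libraries, against 0.819, 0.752 and 0.722 FPKM in the siMSI1 libraries. These ranges overlap and are far below those of the other guardians. Its log2 fold change was −0.09 with a 95% interval of −0.56 to 0.38 (adjusted p = 0.79, limma), so changes of moderate size in either direction were not detectable at 116 to 157 reads per library.

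BAX (ENSG00000087088), on chromosome 19 from 48954815 to 48961798, encodes the effector that moves from the cytosol to mitochondria. Its level was 34.8, 33.4 and 36.1 FPKM in the siC libraries, against 38.3, 41.5 and 44.9 FPKM in the siMSI1 libraries. The knockdown libraries are all higher, with a mean at 119.5% of the siC mean, and they spread more than the controls. On the log2 scale the difference was 0.25 (SE 0.076, 95% interval 0.078 to 0.43, adjusted p = 0.044, limma), and it was called in 1 of the 16 alternative fits.

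BAK1 (ENSG00000030110), on chromosome 6 from 33572547 to 33580293, encodes the effector that resides on mitochondria. It was at 17.7, 17.6 and 17.8 FPKM in the siC libraries, against 17.7, 17.04 and 20.7 FPKM in the siMSI1 libraries. The control libraries are nearly level and lie inside the range of the knockdown libraries. Its log2 fold change was 0.06 with a 95% interval of −0.14 to 0.25 (adjusted p = 0.67, limma), and it was −0.028 without siMSI1 replicate 3.

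BBC3 (ENSG00000105327), on chromosome 19 from 47220822 to 47232766, encodes PUMA, a BH3-only protein that binds all guardians. It was at 0.714, 0.626 and 0.503 FPKM in the siC libraries, against 1.79, 1.66 and 2.1 FPKM in the siMSI1 libraries. The lowest knockdown library stands above the highest control library by a wide margin. In reads these are 34, 36 and 23 against 84, 69 and 96. The means differ 3.01-fold, and the log2 fold change was 1.45 (SE 0.19, 95% interval 1.01 to 1.90, adjusted p = 0.0019, limma). Of all tested genes, 1.76% had a log2 fold change of at least this size in either direction. BBC3 passed the filter on low values from either group alone. Its log2 fold change was 0.82 when 1 FPKM was added in place of 0.1, which shrinks low genes. Its adjusted p was 0.0101 without siMSI1 replicate 1, the single alternative fit of 16 that did not call it.

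BCL2L11 (ENSG00000153094), on chromosome 2 from 111119378 to 111168444, encodes BIM, an activator of the effectors that also binds all guardians. It was at 8.17, 8.06 and 7.61 FPKM in the siC libraries, against 10.8, 11.3 and 10.9 FPKM in the siMSI1 libraries. Both groups are tight and clearly apart. The log2 fold change was 0.46 (SE 0.068, 95% interval 0.31 to 0.62, adjusted p = 0.0030, limma), with 729 to 1057 reads per library. Its call was lost when a library was left out, with an adjusted p of 0.0166, 0.0115 and 0.0130 without siC replicates 1, 2 and 3, and of 0.0125 and 0.0132 without siMSI1 replicates 1 and 2. The lncRNA gene MIR4435-2HG overlaps BCL2L11 on the opposite strand and rose as well, from a mean of 3.86 to 6.19 FPKM (log2 fold change 0.66, adjusted p = 0.0022, limma). The libraries are strand-specific, but whether the counting used the strand is not given in the sources used here, and sharing of reads between both genes was not tested.

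BID (ENSG00000015475), on chromosome 22 from 17734138 to 17774770, encodes the protein that caspase-8 cleaves to link death receptors with mitochondria. Its level was 11.0, 10.9 and 10.3 FPKM in the siC libraries, against 14.6, 14.7 and 17.7 FPKM in the siMSI1 libraries. The knockdown libraries are all higher, and siMSI1 replicate 3 stands above the other two. This is a log2 fold change of 0.54 (SE 0.091, 95% interval 0.33 to 0.75, adjusted p = 0.0053, limma). The adjusted p rose to 0.0229, 0.0170 and 0.0216 without siC replicates 1, 2 and 3, to 0.0125 and 0.0119 without siMSI1 replicates 1 and 2, to 0.0187 with no filter on low genes and to 0.0183 with plain variance moderation.

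PMAIP1 (ENSG00000141682), on chromosome 18 from 59899996 to 59904305, encodes NOXA, a BH3-only protein that binds MCL1 and targets it for degradation. It was at 36.9, 44.4 and 37.2 FPKM in the siC libraries, against 35.6, 35.4 and 33.3 FPKM in the siMSI1 libraries. The knockdown libraries lie just under the controls, of which siC replicate 2 is the highest. The log2 fold change of −0.18 (SE 0.086, 95% interval −0.38 to 0.020) did not pass the test (adjusted p = 0.17, limma), nor in any of the 16 alternative fits.

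BIK (ENSG00000100290), on chromosome 22 from 43110750 to 43129712, encodes a BH3-only protein of the endoplasmic reticulum. It had 9, 8 and 6 reads in siC and 6, 3 and 6 reads in siMSI1, which is 0.511 ± 0.104 FPKM (SD, n = 3) against 0.369 ± 0.111 FPKM (SD, n = 3). The groups overlap, and its mean level was under the filter. Fitted without a filter, its log2 fold change was −0.40 with a 95% interval of −1.07 to 0.28 (adjusted p = 0.52, limma), and no difference could be detected from so few reads.

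**Figure D2:**
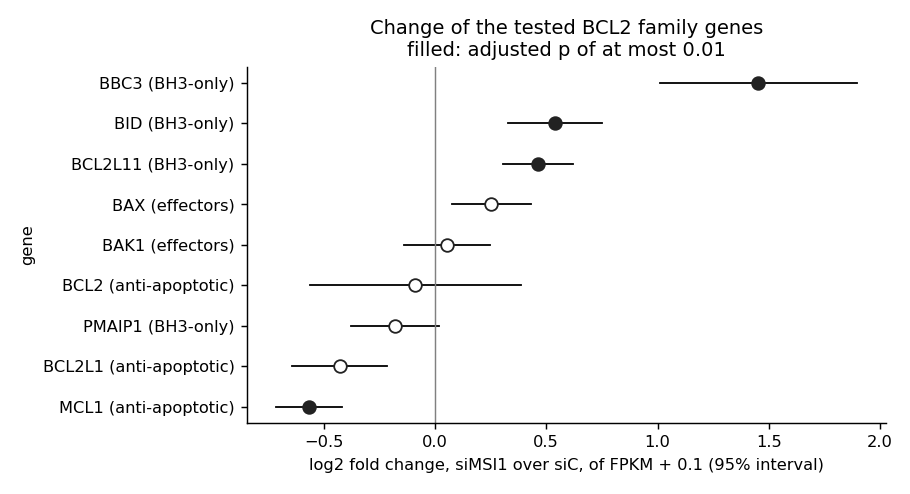
Log2 fold change of siMSI1 over siC for the 9 tested BCL2 family genes, with 95% intervals from limma that are not adjusted for multiple testing. Filled points passed an adjusted p of 0.01. They are BBC3, BID and BCL2L11 on the right and MCL1 on the left.

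The order of the levels differed between the groups. In siC, MCL1 was highest with a mean of 92.7 FPKM, followed by BCL2L1 at 42.8, PMAIP1 at 39.5, BAX at 34.8, BAK1 at 17.7, BID at 10.7 and BCL2L11 at 7.95 FPKM. BCL2, BBC3 and BIK were at or below 0.821 FPKM. The neighbours BCL2L1 and PMAIP1 overlap in this order, as do BBC3 and BIK, and the ranges of the other neighbours do not overlap. The gaps are narrow between PMAIP1 and BAX and between BCL2 and BBC3, where they are smaller than the spread within these genes. MCL1 stood at the 97.0th percentile of the siC levels of all tested genes, BAX at the 89.8th and BBC3 at the 4.37th. In siMSI1, BAX came second at 41.5 FPKM, above PMAIP1 at 34.7 and BCL2L1 at 31.9 FPKM, which overlap. BAX exceeded BCL2L1 in 3 of 3 siMSI1 libraries and in 0 of 3 siC libraries. BID reached the range of BAK1 in siMSI1 replicate 3 only and was below BAK1 within each siMSI1 library. BBC3 lay above BCL2. FPKM values rest on the whole annotated exon length of a gene, 953 bases for BIK to 11765 for BCL2, and shorter forms in use would make a level appear lower.

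Summed by role, the guardians were lower and the effectors higher in every siMSI1 library than in any siC library. BCL2, BCL2L1 and MCL1 together were at 137, 135 and 138 FPKM in the siC libraries, against 94.0, 96.5 and 95.5 FPKM in the siMSI1 libraries. MCL1 made up 68.0% ± 1.68 (SD, n = 3) of this sum in siC and 65.7% ± 3.51 (SD, n = 3) in siMSI1, with overlapping values. BAX and BAK1 together were at 52.4, 51.1 and 53.9 FPKM in the siC libraries, against 56.0, 58.5 and 65.5 FPKM in the siMSI1 libraries. Neither sum overlaps between the groups, and the spread of the effector sum is wider in siMSI1. BOK, a relative of BAX and BAK1 outside the 10, is not in the effector sum. BOK fell from a mean of 12.2 FPKM in siC to 7.11 FPKM in siMSI1. The higher effector sum therefore holds for BAX and BAK1 only.

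The sum of the BH3-only genes combines members that lie on opposite sides. It was at 57.4, 64.4 and 56.0 FPKM in the siC libraries, against 63.2, 63.2 and 64.4 FPKM in the siMSI1 libraries, with overlap. PMAIP1 held 66.5% ± 2.34 (SD, n = 3) of it in siC and 54.6% ± 2.60 (SD, n = 3) in siMSI1. BBC3, BCL2L11 and BID together were at 19.3 ± 0.798 FPKM in siC and at 28.5 ± 1.93 FPKM in siMSI1 (SD, n = 3 each). These 3 are the BH3-only members that were called higher, so their sum is higher by this choice and adds no evidence. BBC3 gives only a small part of it. These sums describe the members and were not tested.

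Ratios within a library do not depend on its scaling. The guardian sum was 2.60 ± 0.0457 times the effector sum in siC and 1.60 ± 0.121 times in siMSI1 (SD, n = 3 each). Against the sum of the BH3-only members, the guardian sum was 2.31 ± 0.189 times in siC and 1.499 ± 0.0235 times in siMSI1 (SD, n = 3 each). BAD, a BH3-only gene that is not a member, is left out of that sum. Its mean was 97.4 FPKM in siC and 84.8 FPKM in siMSI1, above the BH3-only sum itself at 59.3 and 63.6 FPKM. The excess of guardian over BH3-only mRNA therefore holds for the listed members only. The ratio of BCL2L1 to BAX was 1.23, 1.20 and 1.26 in siC and 0.753, 0.751 and 0.797 in siMSI1. MCL1 exceeded BCL2L11 by 11.4, 11.7 and 11.99 times in siC and by 5.98, 5.71 and 5.42 times in siMSI1. None of these ratios overlaps between the groups. For guardians over effectors, BCL2L1 over BAX and MCL1 over BCL2L11 this follows from their parts. In each, the upper part was lower and the lower part higher in siMSI1 without overlap, so these ratios add no evidence. MCL1 over BCL2L1, where both genes were lower, overlaps at 2.17 ± 0.167 in siC and 1.99 ± 0.303 in siMSI1 (SD, n = 3 each). As ratios of mRNA, all of these values do not give the balance of the proteins.

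**Figure D3:**
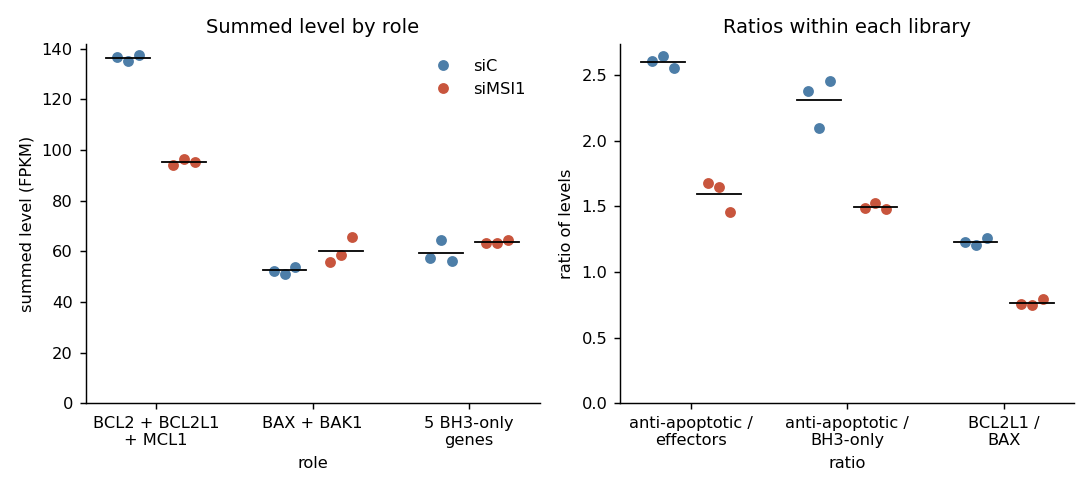
Left, summed level (FPKM) of the guardians, the effectors and the BH3-only genes among the members, without BAD. Right, ratios of these sums and of BCL2L1 to BAX. Points are the 3 libraries of a group and black lines their means; the guardian sum and all 3 ratios are lower in each siMSI1 library than in any siC library.

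Besides MIR4435-2HG, the annotated genes that overlap members and are in the table had few reads. ABALON, a lncRNA gene on the opposite strand at BCL2L1, had up to 98 reads and a log2 fold change of −0.07 (adjusted p = 0.81, limma). ADAMTSL4, whose end overlaps that of MCL1, had at most 22 reads, and the others had at most 13. These counts are small beside those of BCL2L1 and MCL1.

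Of 50 other apoptosis genes listed by role, 42 were tested and 8 were called (19.0%, against 11% of all tested genes), 5 lower and 3 higher. Their median log2 fold change was 0.0056, against 1.5e-05 over all tested genes. The count was 1 without siC replicate 1, 5 without siC replicate 3 or siMSI1 replicate 1, and 6 to 8 without any other library.

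Within the wider BCL2 family, BOK fell, with 12.2 ± 1.47 FPKM in siC and 7.11 ± 0.833 FPKM upon knockdown (SD, n = 3 each). BOK encodes a relative of BAX and BAK1, and its log2 fold change was −0.76 (SE 0.12, adjusted p = 0.0037, limma, 0.015 to 0.020 in 4 of the 6 fits without 1 library). Its adjusted p was also 0.015 with no filter on low genes and 0.015 with plain variance moderation (limma). BAD, a BH3-only gene that is switched by phosphorylation, was at 97.4 ± 6.97 FPKM in siC, a mean near that of MCL1, and at 84.8 ± 12.1 FPKM in siMSI1 (SD, n = 3 each, adjusted p = 0.21, limma). BCL2L2, which encodes the guardian BCL-W, was at 7.75 ± 0.609 and 7.99 ± 0.882 FPKM (SD, n = 3 each, adjusted p = 0.81, limma). BCL2A1 had 0 reads in all libraries, and BCL2L10 at most 2. Of the 4 tested BCL2-related genes none was called, against 11% of all tested genes. The groups did not overlap for any of them, as for 42.8% of all tested genes. In siMSI1, 3 of them were lower and 1 was higher, with a median log2 fold change of −0.26. The most abundant, BCL2L13, was the higher one and differed by 0.23 on the log2 scale (adjusted p = 0.034, limma).

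HRK, a BH3-only gene of neurons, was singled out after its values were seen. It had 46, 55 and 60 reads in siC and 9, 7 and 12 reads in siMSI1. The knockdown libraries are far below the controls, but its mean level was under the filter. Fitted without a filter, its log2 fold change was −1.61 (95% interval −2.26 to −0.95) with an adjusted p of 0.018 (limma), which is not past the threshold.

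Of the genes for mitochondrial channels and released proteins, 1 of 8 was called, and of those for the apoptosome and caspases, 2 of 6. These shares are 12.5% and 33.3%, against 11% of all tested genes, and all of the called genes were lower. VDAC1, a channel of the outer membrane, fell from 53.9 ± 1.47 to 37.0 ± 1.53 FPKM (SD, n = 3 each, log2 fold change −0.54, adjusted p = 0.0011, limma, 0.011 without siC replicate 1). CYCS, which encodes cytochrome c, was at 87.1 ± 6.63 and 84.4 ± 8.23 FPKM (SD, n = 3 each, adjusted p = 0.74, limma). Of the 6 genes of the apoptosome and caspases, CASP2 and CASP6 fell. For CASP2 the log2 fold change was −0.57 (adjusted p = 0.0013, limma, 0.011 without siC replicate 1). For CASP6 it was −0.40 (adjusted p = 0.0053, limma), with an adjusted p of 0.013 to 0.032 in 5 of the 6 fits without 1 library. The adjusted p of CASP6 was also 0.015 with no filter on low genes and 0.019 with plain variance moderation (limma). APAF1 and CASP9 were not called. None of the 4 tested caspase inhibitors (IAP) was called, against 11% of all tested genes. BIRC5, the most abundant of them, differed by −0.26 on the log2 scale (adjusted p = 0.046, limma).

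The death receptor arm, which meets the BCL2 family at BID, had 3 of 8 tested genes higher, where 5.15% of all tested genes were higher, and none lower, where 5.83% were lower. CASP8, the protease that cleaves BID, rose from 3.181 ± 0.209 to 6.16 ± 0.223 FPKM (SD, n = 3 each, log2 fold change 0.93, SE 0.089, adjusted p = 0.00055, limma). It was called in all 16 alternative fits. TNFRSF1A, a TNF receptor, rose from 69.0 ± 3.86 to 106 ± 9.16 FPKM (SD, n = 3 each, log2 fold change 0.61, adjusted p = 0.0020, limma, 0.013 without siC replicate 1 and 0.011 with plain variance moderation). FADD, the adaptor between death receptors and caspase-8, rose from 51.7 ± 1.60 to 74.1 ± 4.10 FPKM (SD, n = 3 each, log2 fold change 0.52, adjusted p = 0.0017, limma, 0.015 without siC replicate 1). CFLAR, which encodes the caspase-8 inhibitor FLIP, differed by 0.03 on the log2 scale (adjusted p = 0.86, limma).

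**Figure D4:**
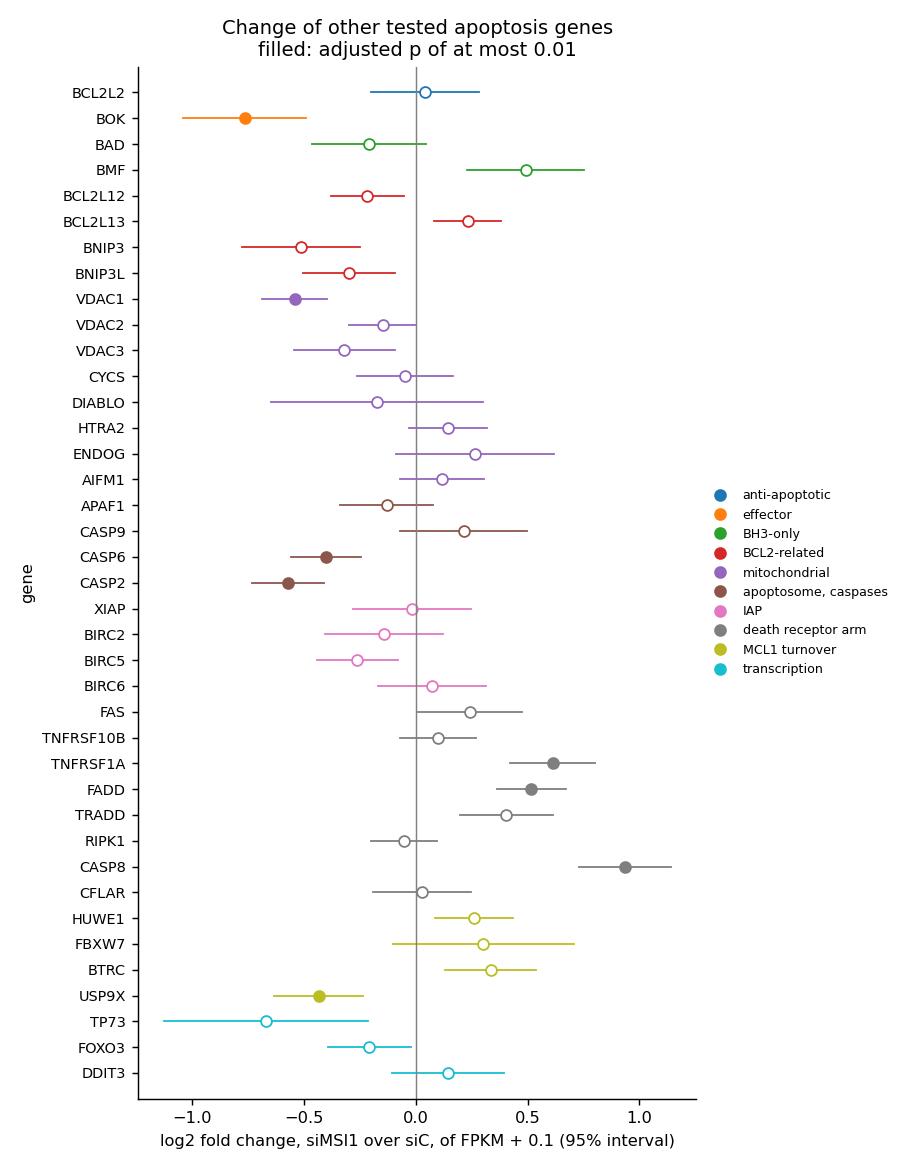
Log2 fold change of siMSI1 over siC for tested apoptosis genes outside the 10 (those not reported by name are left out), coloured by role, with 95% intervals from limma that are not adjusted for multiple testing. Filled points passed an adjusted p of 0.01: BOK, VDAC1, CASP6, CASP2 and USP9X on the left, TNFRSF1A, FADD and CASP8 on the right.

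Of 4 genes that set the turnover of MCL1 protein, 1 was called (25.0%, against 11% of all tested genes). This was USP9X, the enzyme that removes ubiquitin from MCL1. USP9X fell, with 13.6 ± 1.16 FPKM in siC and 10.0 ± 0.589 FPKM upon knockdown (SD, n = 3 each). The difference of −0.43 on the log2 scale was at the threshold (adjusted p = 0.00999, limma) and passed it in 6 of the 16 alternative fits, none of them a fit without 1 library, where the adjusted p was 0.012 to 0.046. HUWE1, a ligase for MCL1, differed by 0.26 on the log2 scale (adjusted p = 0.039, limma). Among 4 transcription factors known to induce BH3-only genes, none was called, against 11% of all tested genes.

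For each called member, the genes with the most similar pattern were taken from the protein-coding genes with a mean of at least 5 FPKM, by Pearson's r of log2(FPKM + 0.1) over the 6 libraries. MCL1 was closest to YY1AP1, RTN4 and FABP7 (r = 0.999, 0.998 and 0.998). BBC3 was closest to RSU1, ZMIZ1 and FOSL2 (r = 0.997 each), BCL2L11 to DNAJC12, NOP16 and COL4A5 (r = 0.999, 0.999 and 0.998), and BID to PLBD2, NEK6 and PGPEP1 (r = 0.994 each). Since the 6 points fall into 2 groups, any gene with a clear group difference scores high, and 271 to 492 genes had an r above 0.95 with each of these members.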

How the data were processed

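Per the study's methods and the submitters' processing notes, the authors clipped reads with Cutadapt (1.14), aligned them to GRCh38 with HiSat2 (2.1.0), counted them per gene with FeatureCounts (1.5.3) and deposited FPKM values per library. The same table holds fold changes and p-values of the authors' own comparison, which were not used. No value column belongs to an unmapped library.

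Reads were recovered as FPKM times gene length over the value of 1 read (whole within 0.01 for 100% of values above 0). A gene of 2 kb with 3 reads has 0.0829 to 0.114 FPKM, which covers counting error only. limma (3.58.1, R 4.3.3; lmFit, eBayes with trend and robust) was run on log2(FPKM + 0.1), keeping every gene whose mean reached 0.5 FPKM, and its code was tested on simulated data. Adding 0.1 understates the change of low genes. The labels do not say that replicates are separate cultures, so p-values measure only the spread between these libraries, which may be technical. No pair of libraries was a duplicate (chi-square per degree of freedom of at least 3.55 within groups).

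Named are the 10 members, MSI1, the other apoptosis genes that were called, the most abundant of each list, and the 3 genes most alike each called member. Named outside this rule are BCL2A1, BCL2L10, HRK, BMF, APAF1, CASP9 and CFLAR, the cell type markers and the genes that overlap members. Some genes of the lists count in the totals but are not reported here by name. Members and lists were chosen with earlier results of these data known. Positions and coding sequences came from GENCODE release 44 (Biopython 1.88). The alternatives were 2 other added values, 2 other filters, 2 scalings, plain moderation, a threshold of 0.05, the replicate number as a term, voom on the recovered reads with and without it, and leaving out each library.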

Additional observations from a re-analysis of the deposited data

How the results depend on the processing

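The direction of the log2 fold change was kept in all 17 alternatives for MCL1, BCL2L1, BAX, BBC3, BCL2L11, BID and PMAIP1, and in the 16 that tested BCL2. The other filters, plain moderation, the replicate term in the fit on FPKM and the threshold of 0.05 leave the fold change unchanged. They could therefore not turn its direction. The log2 fold change of BAK1 turned to −0.028 without siMSI1 replicate 3 and was 0.053 to 0.11 without any other library. The count of called members was 3 to 6 in the alternatives with all libraries (4 in the test as reported) and 1 to 5 without 1 library. At an adjusted p of 0.05 it was 6, with BCL2L1 and BAX added. The count of other apoptosis genes was 5 with no filter on low genes, 4 with plain moderation, 13 with voom, 21 with voom and the replicate block and 18 at an adjusted p of 0.05, and 1 to 8 without 1 library. Over all genes, 1655 were called, against 792 with no filter, 847 with plain moderation, 2684 with voom, 4634 with voom and the replicate block and 3787 at an adjusted p of 0.05, and 517 (without siC replicate 1) to 1603 without 1 library. The causes were not tested, apart from fewer libraries or a looser threshold by construction.

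For libraries with the same number, the deviations from the group means correlated at −0.066, 0.078 and 0.083. Pairs with different numbers correlated at −0.144 to 0.070. With 3 libraries per group, such values cannot tell whether the numbers mark a shared batch or culture. With the replicate block, 2250 genes and 5 members were called (BCL2L1 added). Depth limits BIK (3 to 9 reads), HRK in siMSI1 (7 to 12) and BBC3 in siC (23 to 36).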
